A study of Mus musculus with 10 samples.

Results

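The genes described here are 10 components of the circadian clock, taken by symbol from the authors' comparison of mouse cardiomyocytes, the beating muscle cells of the heart, with and without dnMKL1. They are the activators Clock and Arntl (also called Bmal1), the repressors Per1, Per2, Per3, Cry1 and Cry2, the nuclear receptors Nr1d1 and Nr1d2 (REV-ERB alpha and beta), and the output gene Dbp. All 10 were among the 23337 genes listed and among the 14056 genes with an adjusted p-value. The study placed dnMKL1, a dominant-negative form of the SRF coactivator MKL1 (MRTF-A), in wild-type mice with the virus AAV9-cTNT-dnMKL1-GFP, and its controls received AAV9-cTNT-GFP; the cTNT (cardiac troponin T) promoter is active in cardiomyocytes. Both groups, GFP and dnMKL1, had 5 biological replicates, were injected on postnatal day 1 with 5e+08 vg (viral genomes) per gram, and gave perfused, fluorescence-sorted cells on postnatal day 14. Mice of both groups thus carried a virus and its GFP. Neither the time of day at collection nor the lighting schedule is given in the labels. The clock phase behind every level below is therefore unstated, and it may differ between mice. Nor do the labels say that both groups were collected at the same time of day. A difference in collection time between the groups would be part of the fold changes below and was not tested.

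The clock is a feedback loop of transcription. CLOCK and ARNTL bind E-box sequences as a pair and switch on the Per, Cry, Nr1d and Dbp genes; PER and CRY proteins then return to the nucleus and repress that pair. NR1D1 and NR1D2 repress Arntl through ROR elements, which the ROR receptors use to activate it, and DBP activates genes with D-box sequences, the Per genes among them. In a running clock Arntl peaks at the opposite phase to Dbp, Nr1d1 and the Per genes. In the heart the loop is known to time metabolism and repolarizing ion channels. Per1 and Per2 also answer to acute signals, and serum acting on actin and SRF is among those described for Per2.

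Promoter windows of 300 bases (250 before the annotated start and 50 after it) were found for 9 of the 10 genes, in 13 windows, in a RefSeq table on GRCm38.p6. Per2 had no entry. They were searched on both strands for the E-box (CACGTG), the D-box (TTATGTAA or TTATGCAA), the ROR element (TAGGTCA or TGGGTCA), the cAMP element CRE (TGACGTCA) and the CArG box, which is the SRF motif. None of these motifs overlapped another in a clock gene window. The 4 windows that held a match are printed because they carry the loop's own elements, 5′ to 3′ on the gene's strand with matches in capitals. They lie at chr11:69098699-69098998 (plus strand) for Per1, chr4:151044616-151044915 (minus strand) for Per3, chr10:85185005-85185304 (minus strand) for Cry1 and chr7:113207261-113207560 (plus strand) for Arntl.
Per1: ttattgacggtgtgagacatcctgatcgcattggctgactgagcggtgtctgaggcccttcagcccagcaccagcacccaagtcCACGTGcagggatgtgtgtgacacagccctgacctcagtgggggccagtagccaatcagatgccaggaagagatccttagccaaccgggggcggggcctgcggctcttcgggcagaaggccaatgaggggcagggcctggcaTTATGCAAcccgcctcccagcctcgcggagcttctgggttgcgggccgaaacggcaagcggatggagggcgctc
Per3: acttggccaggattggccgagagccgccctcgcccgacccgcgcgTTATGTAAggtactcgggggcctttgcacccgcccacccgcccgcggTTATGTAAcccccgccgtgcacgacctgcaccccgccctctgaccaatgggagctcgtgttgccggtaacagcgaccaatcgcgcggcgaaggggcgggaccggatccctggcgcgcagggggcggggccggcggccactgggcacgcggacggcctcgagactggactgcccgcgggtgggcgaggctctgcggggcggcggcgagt
Cry1: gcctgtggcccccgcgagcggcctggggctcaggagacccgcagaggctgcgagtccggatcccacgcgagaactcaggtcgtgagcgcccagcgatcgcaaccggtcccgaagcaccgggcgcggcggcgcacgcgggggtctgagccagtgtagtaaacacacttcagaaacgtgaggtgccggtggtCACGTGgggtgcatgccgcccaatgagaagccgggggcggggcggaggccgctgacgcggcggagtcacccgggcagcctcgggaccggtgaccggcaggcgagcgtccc
Arntl: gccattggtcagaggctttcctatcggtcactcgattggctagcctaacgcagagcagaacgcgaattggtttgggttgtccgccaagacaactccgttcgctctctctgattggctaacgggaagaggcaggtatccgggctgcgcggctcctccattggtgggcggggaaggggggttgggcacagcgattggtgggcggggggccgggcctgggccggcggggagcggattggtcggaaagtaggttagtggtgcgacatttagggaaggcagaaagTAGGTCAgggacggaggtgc

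In the Per1 window an E-box began 166 bases before the start and a D-box 24 bases before it. Per3 held D-boxes at 205 and 158 bases before its start, Cry1 an E-box at 60 bases before, and Arntl a ROR element 31 bases into its transcript. Among all 32851 windows of this length, 7.15% held the E-box, 1.66% the D-box, 6.45% the ROR element, 1.79% the CRE and 1.63% the CArG box. The CRE and the CArG box matched in 0 of the 13 clock gene windows, which says only that these letters are not in these windows. Per1, which was higher in dnMKL1 libraries, and Per3, which did not pass the test, both held D-boxes. A match describes the sequence and is neither a binding site nor a cause.

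Values per library were not used here, since the table analysed gives each gene's mean over all 10 libraries (the base mean, in normalized counts), a log2 fold change, its standard error (SE) and a Wald test. Group means below are implied by the base mean and the fold change, and replicate error enters through the SE; whether single libraries of the groups overlap cannot be read from it. The direction was taken from Mkl1, the vector's gene, which the authors' deposited table lists at a log2 fold change of 9.80 (SE 0.15). Cells of the labelled type were present: the cardiomyocyte markers Myh6, Tnnt2, Actc1, Ryr2, Pln and Myl2 had base means from 10438 to 594986 in the authors' deposited table. The implied means of all genes came to a total of 13330302 normalized counts with GFP and 10915829 with dnMKL1. Estimated depth ran from 8803028 to 17123577 counts in the GFP libraries and from 8835136 to 17228616 in the dnMKL1 libraries. Scaling the groups to equal totals adds 0.29 to every log2 fold change, which is about as large as the falls among the clock genes, so each clock gene is given under both scalings. In sorted bulk cells, fewer cells of a type and less RNA per cell cannot be told apart.

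Of the 10 clock genes, Per1 and Per2 rose and Cry2 and Nr1d1 fell in dnMKL1 libraries (Wald test, Benjamini-Hochberg adjusted p-value under 0.05 over 14056 genes). Under total-count scaling 3 were higher (Per1, Per2 and Clock) and 0 lower. By the authors' Wald test 5 clock genes were below 0.05 before adjustment. Calls in that test ended at an unadjusted p-value of 0.0170. The share of all genes below 0.05 before adjustment is therefore larger than the share called, and it is not given here. The share of all tested genes called was 34.1% (16.6% higher and 17.4% lower), and under total-count scaling it was 47.0% (40.4% higher and 6.6% lower). The 4 calls are 40.0% of the clock genes, near that background. The median log2 fold change of the clock genes was -0.048, beside 0.021 over all genes tested, and their median absolute change was 0.16, beside 0.29. The tested genes reach down to a base mean of 1.31, while the clock genes ran from 142 to 1477, so these medians are not matched for level. Of the 6485 tested genes in the clock genes' range of base means, 41.6% were called. None of the 4 reached an adjusted p-value under 0.01 in the authors' Wald test, while 3549 of the 14056 genes tested did.

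**Figure D1:**
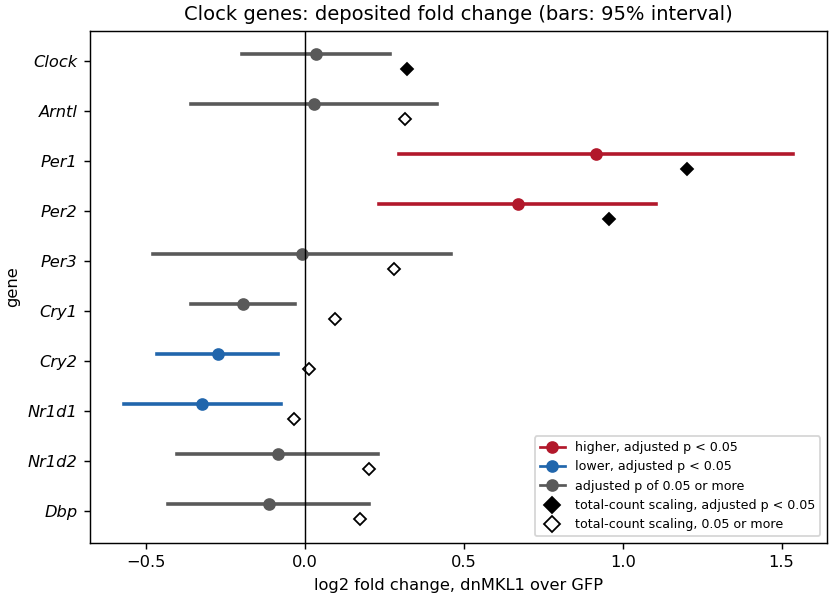
Log2 fold change (dnMKL1 over GFP, x axis) of the 10 clock genes (y axis), with circles and bars for the deposited value and its 95% interval and diamonds for the value under total-count scaling. The intervals of Per1 and Per2 lie above 0, while those of Cry2 and Nr1d1 lie below 0 and their diamonds sit at 0.013 and -0.036.

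Clock and Arntl encode the activating pair. The implied mean of Clock was 890 normalized counts with GFP and 911 with dnMKL1, and that of Arntl was 154 and 157. In the authors' deposited table their log2 fold changes were 0.033 (SE 0.12, adjusted p = 0.877) and 0.027 (SE 0.20, adjusted p = 0.940). Neither passed the test. The 95% interval allowed a dnMKL1 to GFP ratio from 0.871 to 1.203 for Clock and from 0.779 to 1.33 for Arntl. A change within those ranges is therefore not excluded. A call needed an absolute log2 fold change of 0.28 for Clock and 0.47 for Arntl. Total-count scaling put Clock at 0.32 (adjusted p = 0.0170) and Arntl at 0.32 (adjusted p = 0.185).

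The Period genes encode repressors whose transcripts also respond to acute stimuli, and the 3 of them did not share a result. Per1 stood at an implied 189 normalized counts with GFP and 357 with dnMKL1, a ratio of 1.89 with a 95% interval from 1.23 to 2.90. The authors' deposited table gave Per1 a log2 fold change of 0.92 (SE 0.32, adjusted p = 0.0143). Per2 went from 109 to 174, a ratio of 1.59 with an interval from 1.17 to 2.15. The authors' deposited table lists Per2 at 0.67 on the log2 scale (SE 0.22, adjusted p = 0.0106). These were the only clock genes above an absolute log2 fold change of 0.5, and under total-count scaling they stood at 1.203 (adjusted p = 5.8e-04) and 0.96 (adjusted p = 8.8e-05). Per3 had implied means of 370 and 367, and the authors' deposited table gave it -0.0097 (SE 0.24, adjusted p = 0.982). The interval for Per3 ran from 0.717 to 1.38 as a ratio, which overlaps those of Per1 and Per2. The difference between Per3 and the other Period genes was not tested, since the table holds no covariance between genes.

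The cryptochromes are the partners of the PER proteins in repression. Cry2 stood at an implied 678 normalized counts with GFP and 560 with dnMKL1, 17.4% lower. The authors' deposited table gave Cry2 a log2 fold change of -0.28 (SE 0.10, adjusted p = 0.0171). Cry1 had implied means of 345 and 301, with -0.19 (SE 0.08, adjusted p = 0.0557) in the authors' deposited table, so it missed the threshold. Cry1 was on the other side of it with genes of a base mean under 10 left out (adjusted p = 0.0491) or under 100 left out (adjusted p = 0.0440), and with median-centring (adjusted p = 0.04998). Under total-count scaling Cry2 turned to 0.013 (adjusted p = 0.933) and Cry1 to 0.093 (adjusted p = 0.373), which ends the call of Cry2. Cry2 was thus lower relative to the typical gene, while as a share of all counts neither cryptochrome passed the test.

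The REV-ERB receptors repress Arntl and are themselves driven by CLOCK and ARNTL. Nr1d1 stood at an implied 557 normalized counts with GFP and 445 with dnMKL1, 20.1% lower. In the authors' deposited table the log2 fold change of Nr1d1 was -0.32 (SE 0.13, adjusted p = 0.0323), and total-count scaling ended the call at -0.036 (adjusted p = 0.844). Nr1d2, its relative, had implied means of 1522 and 1433. The authors' deposited table gave Nr1d2 -0.086 (SE 0.16, adjusted p = 0.748), and it stood at 0.20 under total-count scaling (adjusted p = 0.315). Dbp, a direct E-box target and transcription factor, had implied means of 165 and 152. Its log2 fold change was -0.12 (SE 0.16, adjusted p = 0.655) in the authors' deposited table and 0.17 under total-count scaling (adjusted p = 0.398). Neither Nr1d2 nor Dbp passed the test under either scaling.

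For levels between genes, base means were divided by the length of each gene's exons in GENCODE M21. Nr1d2 was the most abundant clock transcript at 273 normalized counts per kb, followed by Nr1d1 at 163, Cry2 at 97.9, Cry1 at 96.7, Clock at 65.6, Dbp at 52.9, Per1 at 48.5, Per3 at 38.4, Per2 at 24.2 and Arntl at 20.7 per kb. The span from Nr1d2 to Arntl was 13.2-fold. This order pools both groups and differs within each. With GFP, Per1 (33.6 per kb) stood below Per3 (38.5), and Per2 (18.7) below Arntl (20.5). With dnMKL1, Per1 (63.4) stood above Dbp (50.8), and Cry1 (90.2) above Cry2 (88.6). Of the 9 pairs of neighbours in this order, 5 were farther apart than the approximate 95% error that the SEs give for a mean over all libraries. The neighbours Cry2 and Cry1, Dbp and Per1, Per1 and Per3, and Per2 and Arntl were not. With the longest transcript as the length, 7 of the 9 pairs kept their order, while Per3 stood above Per1 and Arntl above Per2. Cry2 was then at 156 per kb and Cry1 at 107, Arntl at 38.9 and Per2 at 24.3, and Clock at 92.5 and Dbp at 86.1. The error above does not cover the choice of length, so which neighbours stand apart depends on that choice.

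**Figure D2:**
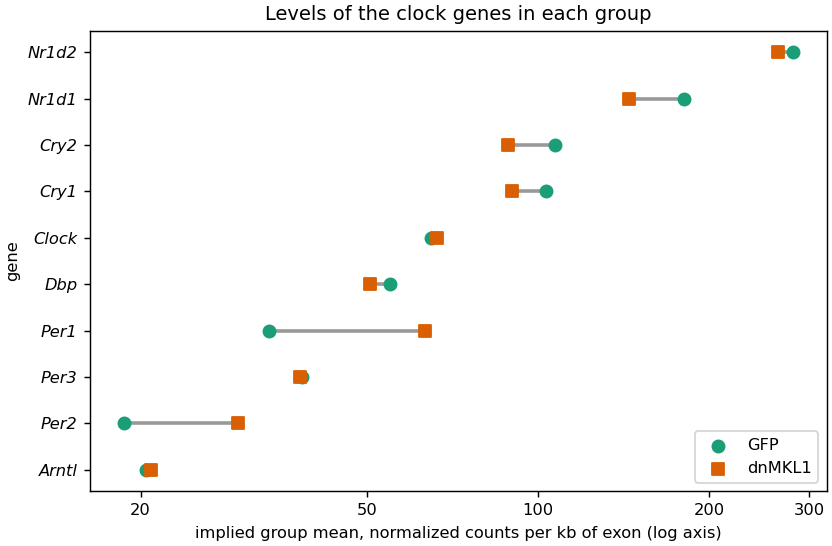
Implied group means in normalized counts per kb of exon (log x axis) for the 10 clock genes (y axis, ordered by pooled level). Circles are GFP, squares are dnMKL1 and a line joins them. The long lines belong to Per1 (33.6 to 63.4) and Per2 (18.7 to 29.7), while the symbols of Arntl, Clock and Per3 nearly coincide.

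The clock genes differed in how much replicates scattered. Per1 had an SE of 0.32 in the authors' deposited table, 2.59 times the median SE (0.122) of the 2485 other tested genes with a base mean within 1.5 times its own, and 97.2% of those genes had a smaller SE. Per3 stood at 2.11 times its neighbours' median, Nr1d2 at 1.72, Per2 at 1.49 and Arntl at 1.35. Cry1 lay at the other end, at 0.711 times, with only 4.84% of its neighbours below it, and Cry2 was at 0.953. In all, 8 clock genes had an SE above and 2 below the median of genes at their level. Taken as equal scatter in every library, the SE of Per1 corresponds to an SD of 0.50 on the log2 scale between libraries and that of Cry1 to 0.13. This scatter set what could be called: a log2 fold change of 0.76 was needed for Per1 and 0.57 for Per3, but 0.20 for Cry1.

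**Figure D3:**
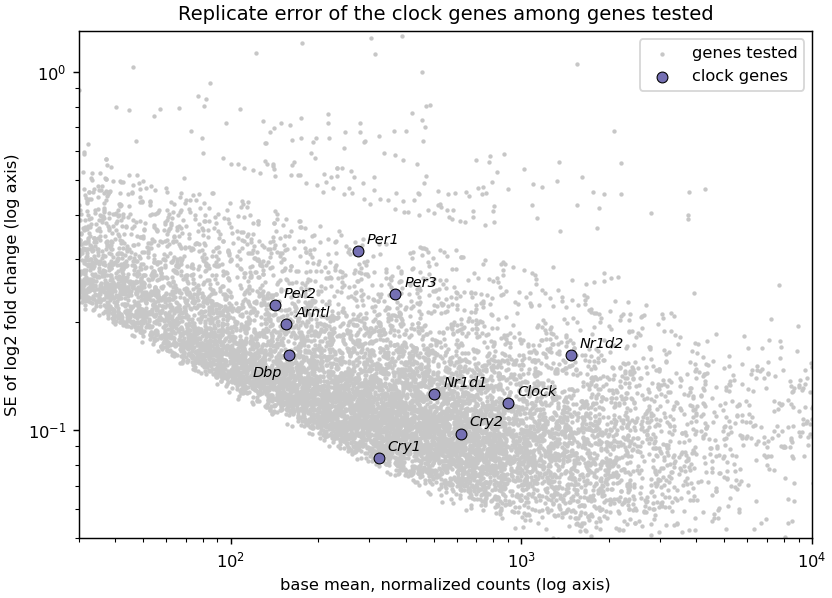
SE of the log2 fold change (log y axis) against base mean in normalized counts (log x axis) for genes tested, in grey, with the 10 clock genes as labelled points. Per1, Per3 and Nr1d2 lie in the upper part of the grey points at their base mean, and Cry1 lies near their lower edge.

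Exons of some clock genes overlap a gene on the other strand, and the use of strand in counting is not given in the sources used here. Nr1d1 (chr11:98767932-98775333, minus strand) shares 263 exon bases, 8.55% of its own, with Thra, the thyroid hormone receptor alpha gene; the authors' deposited table gave Thra a log2 fold change of 0.00084 (SE 0.14). Dbp (chr7:45705088-45710203, plus strand) shares 539 exon bases, 18.01% of its own, with Sphk2, a sphingosine kinase gene listed at -0.036 (SE 0.12) in the authors' deposited table. Cry2 (chr2:92403646-92434043, minus strand) shares 295 exon bases with D930015M05Rik, whose base mean in the authors' deposited table was 1.23. Per1 (chr11:69095217-69109960, plus strand) and Per2 (chr1:91415982-91459324, minus strand) overlapped no other gene in GENCODE M21. The values of Nr1d1 and Dbp are uncertain to the extent that reads were shared.

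Around the core loop, 49 further genes in 10 lists of clock components, inputs and outputs were tested, of which 9 rose and 10 fell. That is 38.8% of them, or 34.8% of 46 without Mkl1, Mkl2 and Srf, beside the background of 34.1%. Under total-count scaling 22 were higher and 6 lower. Ciart and Cipc were found under the older symbols Gm129 and 2310044G17Rik.

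Among paralogues of the activators, Npas2, which can stand in for CLOCK, rose. Its implied mean was 93.9 normalized counts with GFP and 198 with dnMKL1, and the authors' deposited table gave a log2 fold change of 1.08 (SE 0.22, adjusted p = 7.5e-06). Npas2 remained called under total-count scaling at 1.37 (adjusted p = 4.4e-09). Arntl2, the relative of Arntl, had a base mean of 8.46 and a log2 fold change of 0.31 (SE 1.25) in the authors' deposited table, an error too wide to place it.

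The ROR receptors activate Arntl through the element that NR1D1 and NR1D2 repress, and the receptor genes Rorb and Rora were called in different directions. Rorb rose from an implied mean of 51.5 to 110 normalized counts, with a log2 fold change of 1.10 (SE 0.23, adjusted p = 1.6e-05) in the authors' deposited table. Rora fell from 230 to 185, with -0.32 (SE 0.13, adjusted p = 0.0437) in the authors' deposited table, a call that total-count scaling ended at -0.028 (adjusted p = 0.886) and adjustment over all p-values ended at an adjusted p of 0.0540. Rorb stood at 1.39 under total-count scaling (adjusted p = 1.7e-08).

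Of 4 other repressors, 0 passed the authors' Wald test and 1, Bhlhe40 (a repressor that competes for E-boxes), fell below 0.05 before adjustment. The share of all tested genes that passed after adjustment was 34.1%, and the larger share below 0.05 before adjustment is not given here. On the log2 scale the authors' deposited table listed fold changes of -0.40 (SE 0.20) for Bhlhe40, 0.32 (SE 0.22) for Bhlhe41, 0.29 (SE 0.19) for the D-box repressor Nfil3 and 0.91 (SE 0.56) for Ciart. Total-count scaling called Bhlhe41 and Nfil3 higher, at 0.60 and 0.58. The relatives of DBP, Tef and Hlf, had 0 calls and 0 unadjusted p-values under 0.05, at 0.038 (SE 0.14) and 0.29 (SE 0.16) in the authors' deposited table. Under total-count scaling both were higher, at 0.33 (adjusted p = 0.0434) and 0.58 (adjusted p = 9.7e-04). Total-count scaling adds the same amount to every gene, and 40.4% of all genes were called higher under it.

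Genes that act on clock proteins came next. Beside their counts, 16.6% of all tested genes were higher and 17.4% lower. Of 7 kinases and ubiquitin ligases that phosphorylate or degrade PER and CRY, 1 rose and 0 fell, and the exception, Fbxl21, had a base mean of only 5.82 in the authors' deposited table, with a log2 fold change of 1.79 (SE 0.57, adjusted p = 0.00748). The others, among them Csnk1d and Csnk1e, did not pass the test, and under total-count scaling, where 40.4% of all genes were higher and 6.6% lower, 5 of the 7 were higher and 0 lower. Of 8 partners and chromatin cofactors, 1 rose and 2 fell. Nono, an RNA-binding partner of PER, was at 0.36 (SE 0.08, adjusted p = 1.8e-05) in the authors' deposited table. Hdac3 and Ncor1, through which NR1D1 represses, stood at -0.20 (SE 0.07, adjusted p = 0.0184) and -0.24 (SE 0.10, adjusted p = 0.0400) in the authors' deposited table. Total-count scaling turned Hdac3 to 0.086 and Ncor1 to 0.044, with neither called, and left 2 of the 8 higher and 0 lower.

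Output genes beyond the DBP family were in 2 lists. Beside their counts, 16.6% of all tested genes were higher and 17.4% lower, or 40.4% and 6.6% under total-count scaling. Of 6 general outputs, 0 rose and 2 fell: Nampt, the rate-limiting enzyme of NAD salvage, at -0.81 (SE 0.16, adjusted p = 2.9e-06) and the cell cycle kinase Wee1 at -0.37 (SE 0.10, adjusted p = 0.00137) in the authors' deposited table. Nampt remained called under total-count scaling at -0.52, while Wee1 was at -0.080 (adjusted p = 0.544), and the split was then 1 higher and 1 lower. Of 8 heart outputs, 1 rose and 4 fell, with the same split under total-count scaling. The potassium channel genes Kcnip2 and Kcnd2 went from implied means of 1106 to 234 and from 535 to 161 normalized counts. The authors' deposited table gave Kcnip2 -2.24 (SE 0.24, adjusted p = 1.7e-18) and Kcnd2 -1.73 (SE 0.21, adjusted p = 2.9e-15). Under total-count scaling they stood at -1.95 and -1.44.

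Klf15, the clock-driven factor known to time Kcnip2, was at -0.18 (SE 0.19, adjusted p = 0.527) in the authors' deposited table and did not pass. The lipid and fuel genes Dgat2 (triglyceride synthesis) and Pdk4 (inhibition of pyruvate dehydrogenase) fell, at -0.84 (SE 0.14, adjusted p = 3.7e-08) and -0.85 (SE 0.25, adjusted p = 0.00262) in the authors' deposited table. Under total-count scaling Dgat2 stood at -0.55 and Pdk4 at -0.57. Pdk4 was no longer called under total-count scaling computed without Mkl1, at -0.56 (adjusted p = 0.0508). Kcnh2, which encodes the channel of the rapid delayed rectifier current, rose, at 0.33 (SE 0.09, adjusted p = 8.7e-04) in the authors' deposited table.

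**Figure D4:**
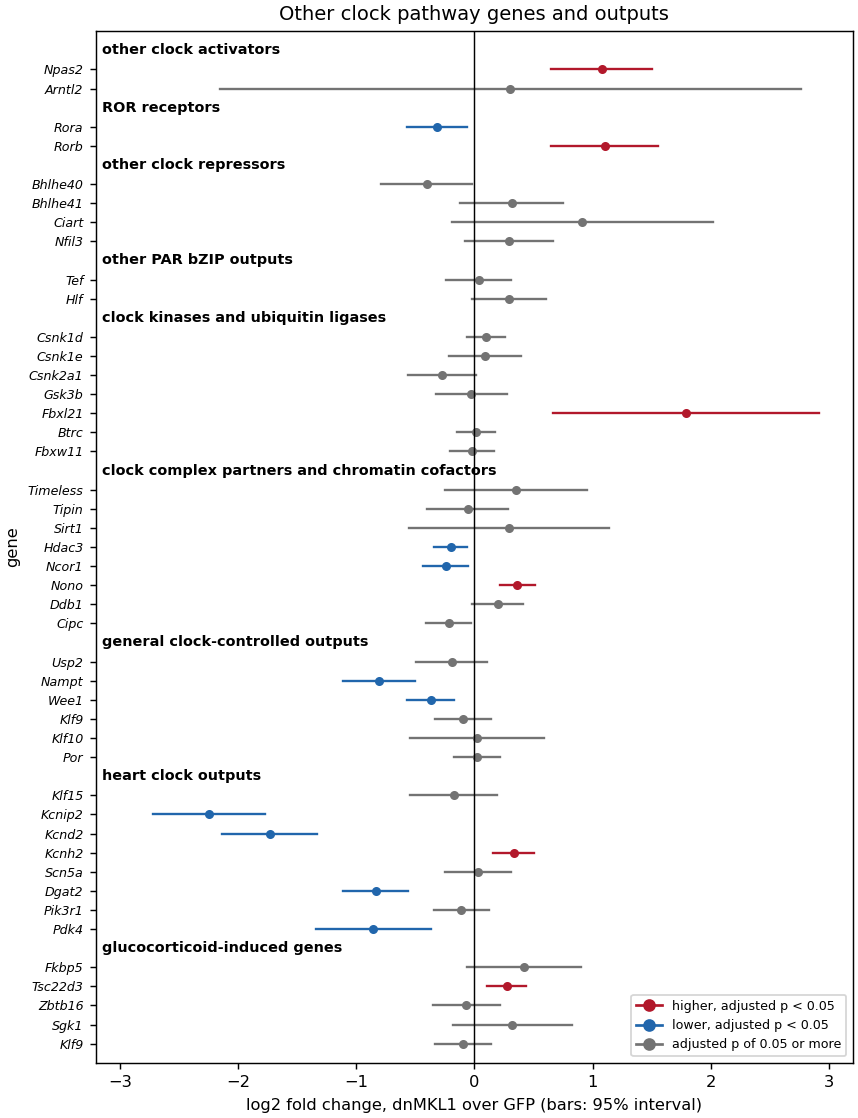
Log2 fold change (dnMKL1 over GFP, x axis) with its 95% interval for genes of 9 clock lists outside the core (y axis), red for higher and blue for lower calls (adjusted p-value under 0.05) and grey for the rest. Npas2 and Rorb lie near 1 to the right, Kcnip2 and Kcnd2 lie at -2.24 and -1.73 to the left, and most kinases and ligases lie close to 0.

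Per1 is also induced by glucocorticoids and by cAMP, and genes of those routes were set beside it. Of the 5 other glucocorticoid-induced genes, 1 rose and 0 fell, beside 16.6% of all genes higher, and under total-count scaling 3 were higher, beside 40.4% of all genes. The gene that rose was Tsc22d3 (GILZ), at 0.27 (SE 0.08, adjusted p = 0.00521) in the authors' deposited table, while Fkbp5, Sgk1, Klf9 and Zbtb16 did not pass. The receptor gene Nr3c1 stood at -0.091 (SE 0.09, adjusted p = 0.502) in the authors' deposited table. Of 6 genes listed as serum and cAMP inducers and sensors, Nr3c1 among them, 3 rose (Mkl1, Mkl2 and Crem) and 1 fell (Srf). Mkl1 is the vector's gene, so its rise was set by the design and is not a result about these signals. Of all tested genes, 16.6% were higher and 17.4% lower. Under total-count scaling 4 of the 6 were higher and 1 lower, beside 40.4% and 6.6% of all genes. Crem, a cAMP-responsive factor, was at 0.59 (SE 0.19, adjusted p = 0.00651), Mkl2 at 0.43 (SE 0.08, adjusted p = 3.2e-06) and Srf at -0.80 (SE 0.10, adjusted p = 2.6e-13) in the authors' deposited table, and Srf was at -0.51 under total-count scaling.

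Markers of cardiomyocytes and of other cells that a sort may retain are given beside the called clock genes. Of all tested genes, 16.6% were higher and 17.4% lower, or 40.4% and 6.6% under total-count scaling. The 6 cardiomyocyte markers had 0 higher and 4 lower, under total-count scaling too, and their implied means went from a total of 1338748 to 717435 normalized counts. Of 7 fibroblast markers 3 were higher (Col1a1, Col1a2 and Col3a1) and 0 lower, and their implied means came to a total of 3195 normalized counts with GFP and 4424 with dnMKL1. Of 6 endothelial markers 0 were called and 0 had an unadjusted p-value under 0.05 in the authors' Wald test, with sums of 2410 and 2493. Of 5 mural markers 2 were higher (Cspg4 and Myh11), with sums of 1291 and 2920, or 790 and 901 without Cspg4. Of 5 macrophage markers 1 was higher (Cd68), with sums of 82.8 and 86.5. Of 4 neuronal and glial markers 2 were tested and 1 (S100b) was higher, with sums of 33.5 and 49.1. No marker was listed at 0, and the lowest base mean in the authors' deposited table was 0.490, that of Snap25. The part of these cells in the values of the clock genes was not tested.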

How the data were processed

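RNA of sorted cardiomyocytes (10 ng a library, polyA) was made into cDNA with a SMART-Seq kit, amplified over 8 PCR cycles, and 500 pg entered Nextera XT libraries, per the labels' protocols. Reads were aligned with STAR (2.5.3a) and counted with featureCounts (Subread 1.5.2) on mm10, per the submitters' processing notes; annotation and strand use are not given in the sources used here. The table analysed is the authors' own comparison. It has the layout that DESeq2 writes, per the file headers. Its deposited base mean is a signal: normalized counts averaged over all libraries, scaled with size factors of the authors. Fold change and SE were deposited as log2 values. The Wald score was deposited as their ratio, and the deposited p-value was adjusted by the Benjamini-Hochberg method over 14056 genes, all recomputed within rounding (largest gap in adjusted p 1.4e-07). Another 5966 genes were listed at 0.

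The members and lists were chosen with earlier results of these data known. The named genes are the 10 members, pathway genes with an adjusted p-value under 0.05, and paralogues of members, RORs, PAR bZIP factors and other repressors; some genes of the planned lists are not reported here. Overlapping genes and uncalled examples were named after their values were seen. Implied means treat the base mean as the midpoint of the group means, since the groups are equal in size. Intervals are the fold change plus or minus the normal 95% range of the SE. The SD per library takes equal scatter in all libraries. Alternatives were other thresholds, filters, adjustment and scalings, recomputed with scipy 1.17.1. The recomputed Wald test, its adjustment and a shift of every fold change were run on simulated fold changes. Their noise was normal with the deposited SEs, so that run checks the arithmetic only and not the SEs, thresholds or filters. Labels do not state separate litters or sorting days. Genes with a single read gave the size factors, and from these an estimated depth for each library; counts carry no molecular identifiers.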

Additional observations from a re-analysis of the deposited data

How the results depend on the processing

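No paired analysis was possible because the table holds no values per library; for the same reason the fits without 1 library and the count tests were not run, and whether 1 library decides a value is unknown. The minimum log2 fold change of 1 and the length of the longest transcript were chosen after seeing the data.

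The 4 clock genes called became 0 at an adjusted p-value under 0.01, 2 with a minimum absolute log2 fold change of 0.5 and 0 with a minimum of 1, since fewer genes can pass; they were 3 to 5 under the other alternatives. The 19 pathway genes became 11 and 6 with those minimums, and the 4792 genes called in all became 2735 and 942. The clock genes' median of -0.048 became 0.24 under total-count scaling and 0.25 when Mkl1 was left out of the totals, by the shift itself. Under these 2 scalings 7 of 36 named genes changed sign, none of them called afterwards: Per3 to 0.28 and 0.29, Cry1 to 0.093 and 0.10, Cry2 to 0.013 and 0.023, Nr1d2 to 0.20 and 0.21, Dbp to 0.17 and 0.18, Hdac3 to 0.086 and 0.096, and Ncor1 to 0.044 and 0.054. Under each, 5 named genes gained a call, and 6 and 7 lost it, Cry2, Hdac3 and Ncor1 among them. Median-centring changed the call of 1 named gene, Cry1, and adjustment over all p-values that of 1, Rora. Restricting the promoter search to the 250 bases before the start left 3 of 4 windows with a match. The longest transcript gave a span of levels of 13.1-fold, but between other genes. It then ran from Nr1d2 (317 per kb) to Per2 (24.3), with Arntl no longer lowest at 38.9.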
